A study of Mus musculus with 12 samples.

Results

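Hyaluronan is a long sugar polymer of the tissue matrix, and the genes described here make it, bind it, break it down or supply the blood proteins that attach to it. The 10 genes were taken by name from the gene table of the series, which holds 36528 gene IDs. They are Has2, Cd44, Hyal1, Hyal2, Stab2, Itih1, Itih2, Itih3, Itih4 and Ambp. All 10 have a row in the table, and 9 passed the filter on low counts and were tested. Has2 did not pass it.

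RNA was sequenced from the whole liver of 12 mice. The CCl4 group (n = 6) was injected in the peritoneum with carbon tetrachloride, a solvent that injures hepatocytes and leads to scarring when given repeatedly. The oil group (n = 6) was injected by the same route with corn oil, the vehicle, and both groups were dosed 3 times per week for 6 weeks. Strain, sex, age and genotype are not given in the labels used here, and mice of a group are numbered only to name them. Levels are CPM, the counts of a gene scaled to a common library total after TMM normalisation. Total counts per library ran from 43027778 to 70375852. Where a gene was tested, the test was edgeR's quasi-likelihood test over 16032 genes, and a gene was called when its Benjamini-Hochberg adjusted p was under 0.05.

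Hyaluronan synthases sit in the plasma membrane and extrude the chain as they extend it from UDP-glucuronic acid and UDP-N-acetylglucosamine. In liver, stellate cells are known as makers of hyaluronan, and sinusoidal endothelial cells take it up from blood through the scavenger receptor stabilin-2 (Stab2). CD44 is the main cell surface receptor, HYAL2 cuts the long chain at the cell surface, and HYAL1 cuts the fragments in lysosomes. The inter-alpha inhibitors are made by hepatocytes. Their light chain bikunin, cut from the precursor encoded by Ambp, carries a chondroitin sulfate chain to which the heavy chains of Itih1, Itih2 and Itih3 are linked, and heavy chains can be passed on to hyaluronan. Itih4 encodes a related plasma protein that lacks the site for this linkage.

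In the GRCm38.p6 annotation of RefSeq, 3 members lie side by side on chromosome 14. These are Itih4 (chr14:30886476-30901986, plus strand), Itih3 (chr14:30908572-30923787, minus strand) and Itih1 (chr14:30929180-30943289, minus strand). By the gene ends of GENCODE M21, which differ slightly, they are separated by 6219 and 5420 bases. Hyal2 (chr9:107567873-107572778) and Hyal1 (chr9:107576950-107581699) are neighbours on the plus strand, 4148 bases apart in GENCODE M21. On chromosome 2, Itih2 (chr2:10094591-10130683) and Cd44 (chr2:102811141-102901669) are both on the minus strand. The remaining members, all on the minus strand, are Ambp (chr4:63143275-63154172), Stab2 (chr10:86841194-87008038) and Has2 (chr15:56665627-56694546).

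The 250 bases before the annotated start are shown for the 3 members that passed the test, Cd44, Hyal1 and Itih1, and for Itih4, which neighbours Itih1 in the chromosome 14 cluster and was not called. Each is written 5′ to 3′ on the strand of its gene, from RefSeq for GRCm38.p6, and capitals mark a match, on either strand and lying wholly within these bases, to TTCNNNGAA or GGGCGG. The windows are chr2:102901666-102901915 for Cd44, chr9:107576700-107576949 for Hyal1, chr14:30943290-30943539 for Itih1 and chr14:30886226-30886475 for Itih4.
Cd44: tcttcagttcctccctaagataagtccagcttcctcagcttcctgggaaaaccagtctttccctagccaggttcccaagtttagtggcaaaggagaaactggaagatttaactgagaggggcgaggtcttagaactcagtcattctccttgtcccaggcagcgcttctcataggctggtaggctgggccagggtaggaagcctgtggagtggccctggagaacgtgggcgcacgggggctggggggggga
Hyal1: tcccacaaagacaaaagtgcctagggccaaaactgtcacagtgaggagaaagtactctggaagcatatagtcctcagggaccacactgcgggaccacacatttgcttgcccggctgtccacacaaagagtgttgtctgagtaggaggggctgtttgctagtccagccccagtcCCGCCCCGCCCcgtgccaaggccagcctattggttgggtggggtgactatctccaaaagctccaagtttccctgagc
Itih1: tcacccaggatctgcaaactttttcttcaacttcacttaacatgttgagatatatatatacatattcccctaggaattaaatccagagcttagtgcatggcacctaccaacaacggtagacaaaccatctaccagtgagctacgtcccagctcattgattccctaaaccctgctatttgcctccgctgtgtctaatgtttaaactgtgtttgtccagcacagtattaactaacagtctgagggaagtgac
Itih4: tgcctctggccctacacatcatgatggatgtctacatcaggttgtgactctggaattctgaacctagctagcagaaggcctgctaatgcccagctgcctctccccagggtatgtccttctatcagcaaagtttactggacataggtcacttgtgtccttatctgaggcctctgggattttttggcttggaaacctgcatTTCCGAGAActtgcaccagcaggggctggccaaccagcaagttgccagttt

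The window of Itih4 held 1 match to TTCNNNGAA, the spacing recognised by STAT factors, beginning 51 bases before the start. That motif stands in 8.30% of the 32851 promoters of 300 bases in the RefSeq table (250 before and 50 after the start). None of the other 8 members with a promoter in the table held it, and none of the 9 matched TTNNGCAAT (2.18% of all promoters), GTTAATNAT (0.801%) or GGGANTTCC (1.68%). GGGCGG, which 35.7% of promoters hold, overlapped itself in Hyal1, with matches beginning 77 and 72 bases before the start. Hyal2 and Itih3 held it before the start and Cd44 only after it. TATAAA, in 13.6% of promoters, overlapped the start of Itih4 and followed that of Itih3. GC content over the 300 bases was 58.0% for Cd44, 57.0% for Hyal1, 52.3% for Itih4 and 45.7% for Itih1, with a median of 52.7% over all promoters. A match to these letters describes the sequence and was not tested for binding.

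After CCl4, 1 member rose (Cd44), 2 fell (Hyal1 and Itih1) and 6 were not called. Over all tested genes, 39.0% were called, 20.6% risen and 18.4% fallen. The 6 CCl4 livers all lay above the 6 oil livers for Cd44 and all below them for Hyal1, and the groups did not overlap for 20% of all tested genes. The members thus moved about as often as other genes of these livers. Their median log2 fold change was -0.19, and that of all tested genes was 0.01. Rises were 52.8% of all calls with TMM scaling and 67.3% with upper-quartile scaling, which put the median of all genes at 0.13 on the log2 scale.

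**Figure D1:**
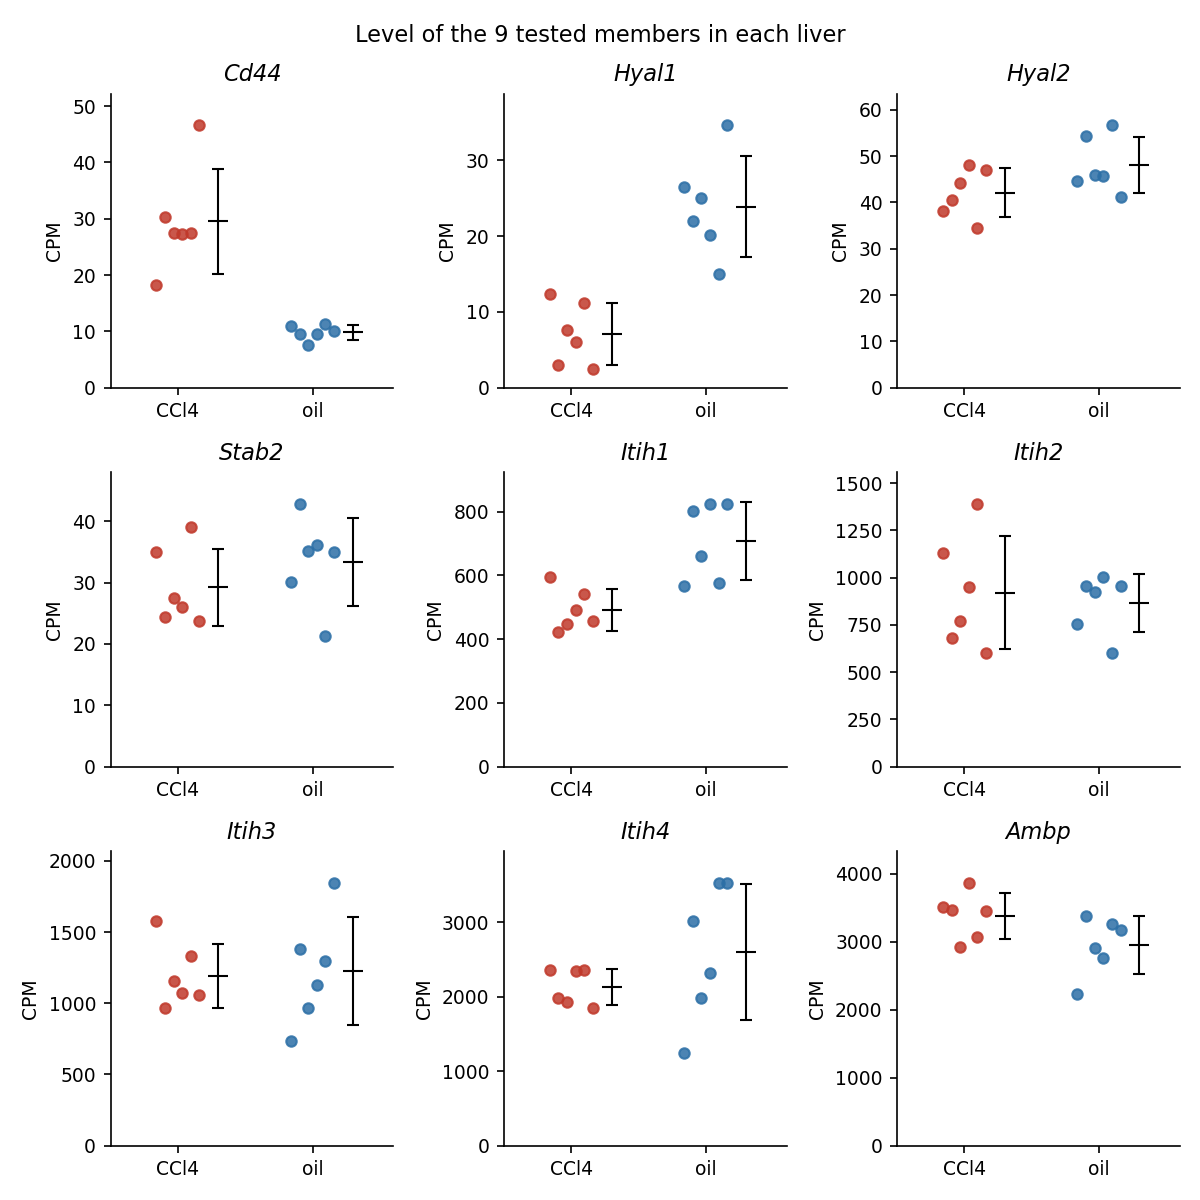
CPM of the 9 tested members in each of the 6 CCl4 livers (red, left) and 6 oil livers (blue, right), with the mean and SD in black; each panel has its own axis from 0. Cd44 and Hyal1 are the members whose groups do not overlap, and Itih2, Itih3 and Itih4 spread widely within groups.

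Per kilobase of exon, the inter-alpha inhibitor genes stood far above the rest. Ambp led, with 2400 ± 238 CPM per kb in CCl4 livers and 2094 ± 299 CPM per kb in oil livers (SD, n = 6 each). In CCl4 livers the mean levels that followed were 579 CPM per kb for Itih4, 328 for Itih3, 278 for Itih2 and 149 for Itih1. The same order held in oil livers, with 705 CPM per kb for Itih4, 337 for Itih3, 261 for Itih2 and 215 for Itih1. In oil livers the ranges of Itih4, Itih3, Itih2 and Itih1 each overlapped the next in that order, and in CCl4 livers those of Itih3 and Itih2 did.

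The hyaluronan receptors and hyaluronidases were expressed at a small share of these levels. Hyal2 was the highest, at 12.8 ± 1.61 CPM per kb in CCl4 livers and 14.6 ± 1.85 CPM per kb in oil livers. Below it the order differed between the groups. In CCl4 livers it was Cd44 (4.36 CPM per kb), Stab2 (3.34) and Hyal1 (1.88), with each range overlapping the next. In oil livers it was Hyal1 (6.32 CPM per kb), Stab2 (3.82) and Cd44 (1.46), and the range of Cd44 lay below that of Stab2. The place of Hyal1 depends on its length, since some of its exon bases are shared with other genes (given below). With all its counts divided by only the 1816 bases it does not share, Hyal1 stood at 3.91 ± 2.24 CPM per kb in CCl4 livers, above the mean of Stab2. In oil livers it then stood at 13.2 ± 3.66 CPM per kb. That length would apply if no read of the shared bases had been counted for Hyal1, which is not known.

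Transcripts of Has2, the synthase usually named as the main one in fibrotic tissue, were almost absent. The table gave 2 counts in CCl4 mouse 5, 7 in CCl4 mouse 6, and 0 in the other 4 CCl4 livers and all 6 oil livers. In total there were 9 counts among 372722394 in the CCl4 group and 0 among 313869939 in the oil group, where 0 counts allow a level of up to 0.00956 CPM (3 counts over the group, counting error only). The level of CCl4 mouse 6 was 0.128 CPM, and the limit of 3 counts in a single library ran from 0.0426 to 0.0697 CPM. Fitted without the filter, edgeR's quasi-likelihood test gave Has2 a p of 0.0522 and an adjusted p of 0.14. A difference in Has2 was not detected at these low counts, all of which came from CCl4 mice 5 and 6.

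The other synthases were also low. Has1 averaged 0.256 ± 0.0708 CPM in CCl4 livers and 0.529 ± 0.368 CPM in oil livers (SD, n = 6 each), a log2 fold change of -1.06 ± 0.41 (SE) that was not called (edgeR adjusted p = 0.0528). Has3 did not pass the filter, with 65 counts over the CCl4 livers and 53 over the oil livers.

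Of 11 tested genes for synthesis and for the sugar precursors, 3 rose, 1 fell and 7 were not called, with a median log2 fold change of 0.03. The 1 that fell was Ugdh, which makes UDP-glucuronic acid. It averaged 220 ± 15.0 CPM in CCl4 livers and 332 ± 38.6 CPM in oil livers, with no overlap (log2 fold change -0.59 ± 0.11, edgeR adjusted p = 0.000685). Among those that rose, Pgm3, an enzyme on the way to UDP-N-acetylglucosamine, averaged 35.8 CPM in CCl4 livers and 22.8 CPM in oil livers (0.65 ± 0.16, adjusted p = 0.00464). Hk2, a hexokinase, averaged 2.81 CPM in CCl4 livers and 1.25 CPM in oil livers (1.16 ± 0.33, adjusted p = 0.0124).

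Cd44 rose 3.00-fold. Its lowest, median and highest levels were 18.2, 27.5 and 46.6 CPM in CCl4 livers, against 7.61, 9.82 and 11.4 CPM in oil livers. The groups did not overlap, CCl4 mouse 6 stood highest, and CCl4 mouse 1 stood nearest to the oil livers. On the log2 scale the change was 1.58 ± 0.19 (SE), with an edgeR adjusted p of 2.3e-05.

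CD44 is carried by leukocytes and activated stellate cells among others. Markers of activated stellate cells and of macrophages and monocytes mostly rose as well, while those of lymphocytes and neutrophils did so only in part. Of 14 markers of activated stellate cells 14 rose, and their summed level ran from 854 to 1185 CPM in CCl4 livers and from 206 to 347 CPM in oil livers. Of 10 macrophage and monocyte markers 9 rose and 0 fell, with sums of 445 to 648 CPM in CCl4 livers and 151 to 211 CPM in oil livers. CCl4 mouse 6 had the highest Cd44 and, among CCl4 livers, the highest sums of macrophage, lymphocyte, neutrophil and general endothelial markers. The stellate cell sum was highest in CCl4 mouse 2. The library of CCl4 mouse 6 was also the CCl4 library richest in short transcripts. Without CCl4 mouse 6 the log2 fold change of Cd44 was 1.41 (edgeR adjusted p = 1.2e-05). Of 10 lymphocyte markers 4 rose and 1 fell, and their sums ran from 8.55 to 13.2 CPM in CCl4 livers and from 6.97 to 9.34 CPM in oil livers. Neutrophil markers had 1 risen and 0 fallen of 5 tested. The sums of that list ran from 17.0 to 48.5 CPM in CCl4 livers and from 13.2 to 49.4 CPM in oil livers. No marker of these lists was at 0 in all livers. The part of these cells in the level of Cd44 was not tested, and in whole liver more cells of a type and more RNA per cell cannot be told apart.

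Partners of CD44 moved in both directions. Of 10 tested partners, sheddases and ligands, 5 rose, 1 fell and 4 were not called, with a median of 0.23. Spp1, which encodes the ligand osteopontin, averaged 149 ± 24.3 CPM in CCl4 livers and 29.2 ± 4.96 CPM in oil livers (log2 fold change 2.34 ± 0.15, edgeR adjusted p = 2.0e-07). The proteins moesin and radixin both tie the tail of CD44 to actin. Msn rose, with 54.7 CPM in CCl4 livers and 26.3 CPM in oil livers (1.05 ± 0.12, adjusted p = 1.5e-05), and Rdx fell, with 111 CPM in CCl4 livers and 183 CPM in oil livers (-0.72 ± 0.11, adjusted p = 0.00022). The groups overlapped for neither.

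Stab2, the clearance receptor, was not called. Its lowest, median and highest levels were 23.7, 26.7 and 39.0 CPM in CCl4 livers, against 21.3, 35.0 and 42.8 CPM in oil livers. The ranges overlapped almost wholly, with the lowest value in an oil liver. The log2 fold change was -0.19 ± 0.17 (edgeR adjusted p = 0.397), with a 95% interval from -0.58 to 0.20. Of 11 other markers of sinusoidal endothelial cells 1 rose and 3 fell, and their sum ran from 330 to 373 CPM in CCl4 livers and from 358 to 490 CPM in oil livers. Antisense genes are annotated across Stab2, and it is not given whether counting used the strand.

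The other receptors of hyaluronan included 5 risen genes and 0 fallen among 6 tested, with a median of 0.71. Lyve1, a receptor close to CD44 that is found on lymphatic and sinusoidal endothelium, averaged 8.74 ± 1.56 CPM in CCl4 livers and 5.19 ± 1.20 CPM in oil livers without overlap (log2 fold change 0.75 ± 0.17, edgeR adjusted p = 0.00376). Tlr4, an innate immune receptor reported to answer hyaluronan fragments, averaged 3.25 CPM in CCl4 livers and 1.68 CPM in oil livers (0.95 ± 0.22, adjusted p = 0.00442). Hmmr binds hyaluronan and also the mitotic spindle, and it is high in dividing cells. It ran from 0.901 to 4.88 CPM in CCl4 livers and from 0.0468 to 0.478 CPM in oil livers (3.77 ± 0.54, adjusted p = 9.1e-05). Stab1, the relative of Stab2, averaged 38.2 CPM in CCl4 livers and 29.2 CPM in oil livers and was the 1 receptor not called (adjusted p = 0.166).

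Hyal1 fell 3.36-fold. Its lowest, median and highest levels were 2.51, 6.80 and 12.3 CPM in CCl4 livers, against 15.0, 23.5 and 34.7 CPM in oil livers. The groups did not overlap, although both spread widely, and the lowest oil liver was mouse 5. On the log2 scale the change was -1.75 ± 0.36 with an edgeR adjusted p of 0.00167.

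The exons of Hyal1 are not its own alone. In GENCODE M21, 1920 of its 3777 exon bases (50.8%) also belong to Naa80, which encodes an actin N-terminal acetyltransferase, and 159 belong to Hyal3, all on the same strand, so that the counting rule, which is not given, decides where these reads went. Naa80 averaged 32.9 ± 14.2 CPM in CCl4 livers and 62.0 ± 12.3 CPM in oil livers (log2 fold change -0.91 ± 0.25, edgeR adjusted p = 0.0106). Hyal3, a testis-associated hyaluronidase, averaged 0.368 ± 0.228 CPM in CCl4 livers and 0.939 ± 0.301 CPM in oil livers (-1.34 ± 0.41, adjusted p = 0.0194). With the counts of Hyal1, Hyal3 and Naa80 summed to 1 gene, the log2 fold change was -1.10 (adjusted p = 0.0047). An antisense gene is also annotated at Hyal1, and another at Hyal2. The other neighbours Tusc2 (log2 fold change 0.31, adjusted p = 0.487) and Ifrd2 (0.12, adjusted p = 0.46) were not called.

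**Figure D2:**
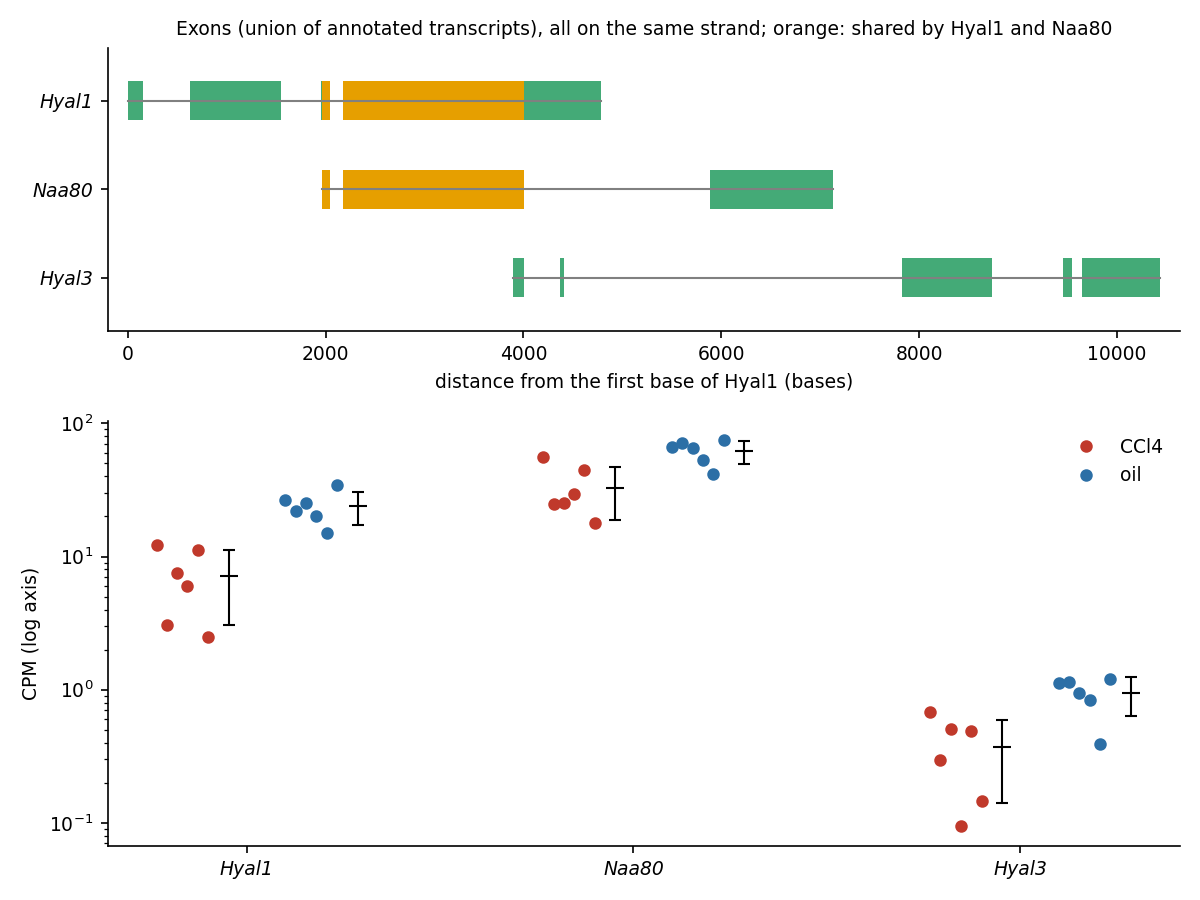
Top, exons of Hyal1, Naa80 and Hyal3 by distance from the first base of Hyal1, with bases shared by Hyal1 and Naa80 in orange; bottom, CPM on a log axis in CCl4 livers (red, left) and oil livers (blue, right), with mean and SD. All 3 genes have lower means in CCl4 livers, and Hyal1 is the 1 whose groups do not overlap.

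Hyal1 also followed a property of the libraries. In each library the slope of log2 CPM on log2 transcript length was taken over 14846 genes, and a lower slope means relatively more signal from short transcripts. It ran from 0.166 to 0.486 in CCl4 libraries and from 0.285 to 0.529 in oil libraries. Within the CCl4 group, the log2 CPM of Hyal1 had a Pearson's r of 0.952 and a Spearman's rho of 0.943 with the slope (exact permutation p = 0.00694 and 0.0167, n = 6), and r was 0.922 without the 2 livers farthest from the median. Within the oil group r was 0.960 and rho 0.943 (exact permutation p = 0.00694 and 0.0167, n = 6), and r was 0.765 without the 2 farthest livers. Over the 90 relations computed between members and with the slope, the lowest adjusted p was 0.0893, so none passed. The lowest exact permutation p that 6 livers allow for r is 0.00139, so a single relation could not pass by itself. Fitted together with the slope, Hyal1 changed by -1.29 on the log2 scale (edgeR adjusted p = 5.9e-06).

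Stab2 had a Pearson's r of 0.945 with the slope in the CCl4 group (adjusted p = 0.0893), and 0.587 in the oil group. The oil value did not hold, with a rho of -0.0857 and an r of -0.910 without the 2 livers farthest from the median. Hyal2 ran against the slope, with r of -0.789 in the CCl4 group and -0.933 in the oil group (adjusted p = 0.224 and 0.0893). For Itih2 r was 0.879 in the CCl4 group and 0.675 in the oil group (adjusted p = 0.151 and 0.330). For Cd44 it was -0.766 in the CCl4 group and -0.381 in the oil group (adjusted p = 0.214 and 0.659). In the oil group rho was 0.314 for Itih2 and -0.0857 for Cd44. There r without the 2 farthest livers was -0.640 for Itih2 and -0.107 for Cd44. The part of the length slope in these levels was not tested beyond the covariate.

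**Figure D3:**
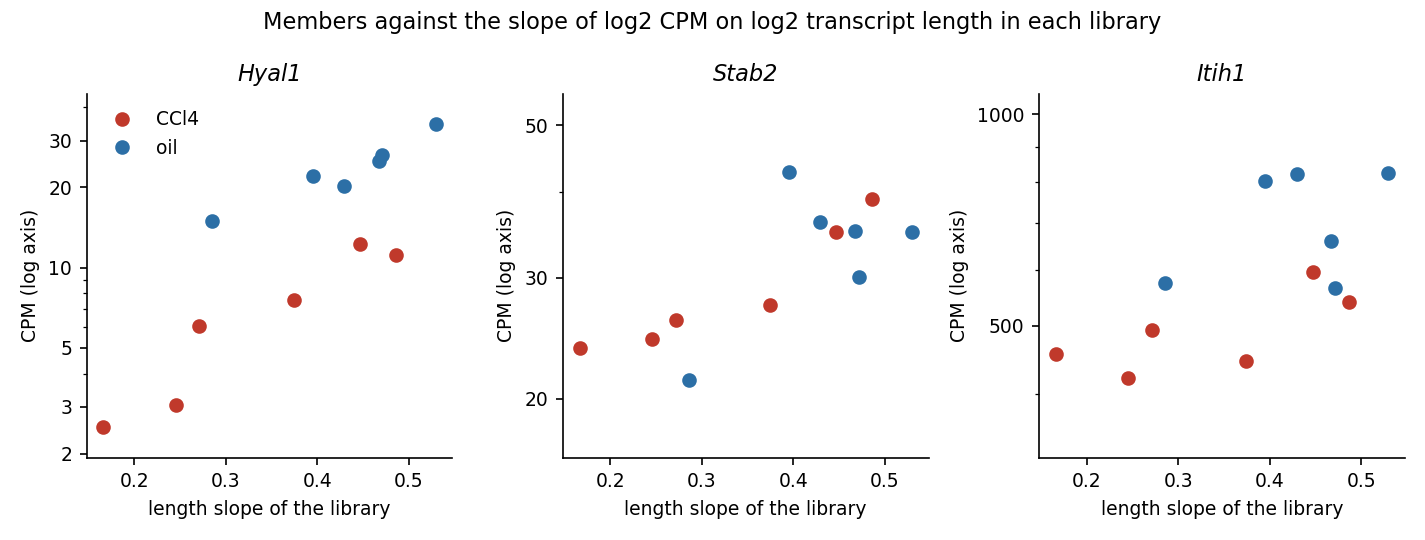
CPM on a log axis of Hyal1, Stab2 and Itih1 against the length slope of each library, for 6 CCl4 livers (red) and 6 oil livers (blue). Hyal1 increases with the slope in both groups while the CCl4 livers stay below the oil livers; the oil values of Stab2 and Itih1 show no such order.

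Hyal2, the cell surface hyaluronidase, was not called. Its lowest, median and highest levels were 34.5, 42.3 and 48.2 CPM in CCl4 livers, against 41.1, 45.9 and 56.7 CPM in oil livers. The groups overlapped in part, with some CCl4 livers below every oil liver and some oil livers above every CCl4 liver. The log2 fold change was -0.19 ± 0.12 (edgeR adjusted p = 0.215), with a 95% interval from -0.46 to 0.08. Fitted together with the length slope it was -0.33 and called (adjusted p = 0.00421). Per kilobase, the ratio of Hyal2 to Hyal1 was 9.94 ± 7.13 in CCl4 livers and 2.53 ± 1.03 in oil livers, with overlap. With all counts of Hyal1 divided by only its unshared bases, the ratio was 4.78 ± 3.43 in CCl4 livers and 1.22 ± 0.495 in oil livers.

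Of 5 other tested genes of hyaluronan breakdown, 3 rose, 1 fell (Hyal3, above) and 1 was not called, with a median of 0.39. Hexa and Gusb, among those that rose, encode lysosomal exoglycosidases that trim the fragments and also act on other substrates. Hexa averaged 92.8 CPM in CCl4 livers and 62.9 CPM in oil livers (log2 fold change 0.56 ± 0.14, edgeR adjusted p = 0.00744). Gusb averaged 42.0 CPM in CCl4 livers and 31.9 CPM in oil livers (0.39 ± 0.12, adjusted p = 0.0176), and was not called without CCl4 mouse 5 (adjusted p = 0.0521). The macrophage marker sums given above were also higher in CCl4 livers, and the part of macrophages in the levels of these genes was not tested.

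Itih1, the gene of heavy chain 1, fell 1.44-fold. Its lowest, median and highest levels were 421, 474 and 596 CPM in CCl4 livers, against 565, 732 and 824 CPM in oil livers. CCl4 mouse 1 reached into the range of the oil group, in which mice 1 and 5 were lowest. In CCl4 mouse 1 the summed level of 8 muscle and fat markers was 225 CPM, against 2.16 to 44.6 CPM in the other CCl4 livers and 2.76 to 4.52 CPM in oil livers, and without that liver Itih1 changed by -0.61 on the log2 scale (edgeR adjusted p = 0.0053). The log2 fold change was -0.53 ± 0.14 (edgeR adjusted p = 0.00904), with a 95% interval from -0.84 to -0.21.

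The other heavy chain genes did not pass. Itih2, heavy chain 2, had lowest, median and highest levels of 602, 859 and 1389 CPM in CCl4 livers, against 604, 939 and 1001 CPM in oil livers. The CCl4 livers spread on both sides of the oil livers (log2 fold change 0.09 ± 0.20, edgeR adjusted p = 0.754, 95% interval from -0.37 to 0.54). Itih3, heavy chain 3, had 970, 1115 and 1579 CPM in CCl4 livers, against 737, 1213 and 1845 CPM in oil livers. Here the oil livers spread further in both directions (-0.04 ± 0.20, adjusted p = 0.892, 95% interval from -0.48 to 0.41).

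Itih4, which in mouse liver responds to inflammation, had lowest, median and highest levels of 1848, 2160 and 2362 CPM in CCl4 livers, against 1238, 2668 and 3528 CPM in oil livers. All 6 CCl4 livers lay inside the range of the oil group. The log2 fold change was -0.28 ± 0.22 (edgeR adjusted p = 0.314, 95% interval from -0.77 to 0.20), and without oil mouse 1, the lowest liver, it was -0.46 and called (adjusted p = 0.0429).

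Ambp, the bikunin precursor gene, was not called. It had lowest, median and highest levels of 2925, 3458 and 3863 CPM in CCl4 livers, against 2228, 3039 and 3374 CPM in oil livers. Its log2 fold change was 0.20 ± 0.13 (edgeR adjusted p = 0.227), with a 95% interval from -0.08 to 0.48, so that a fall of the size of that in Itih1 lies outside its interval. Markers secreted by hepatocytes, the cells that make these proteins, included 2 risen and 1 fallen gene of 10, and their summed level was 132292 to 185886 CPM in CCl4 livers and 121998 to 171103 CPM in oil livers.

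The make-up of the inter-alpha inhibitor transcripts was described per kilobase in each liver. Itih1 was 11.3 ± 0.695% of the sum of Itih1 to Itih4 in CCl4 livers, with a range of 10.3 to 12.5%, and 14.6 ± 2.88% in oil livers, with a range of 10.5 to 18.3% (SD, n = 6 each). Ambp stood at 16.3 ± 2.49 times Itih1 in CCl4 livers and 9.90 ± 1.85 times in oil livers. The groups were separated for this ratio by a narrow gap, with CCl4 mouse 5 at 13.2835 and oil mouse 5 at 13.2786. Itih2 over Itih1 was 1.83 ± 0.416 in CCl4 livers and 1.22 ± 0.124 in oil livers, and Itih3 over Itih1 was 2.19 ± 0.165 in CCl4 livers and 1.56 ± 0.388 in oil livers, both with overlap. Measured against the sum of Itih1 and Itih2, Ambp was 5.91 ± 1.51 times as high in CCl4 livers and 4.50 ± 1.03 times in oil livers, also with overlap. These ratios were described and not tested.

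**Figure D4:**
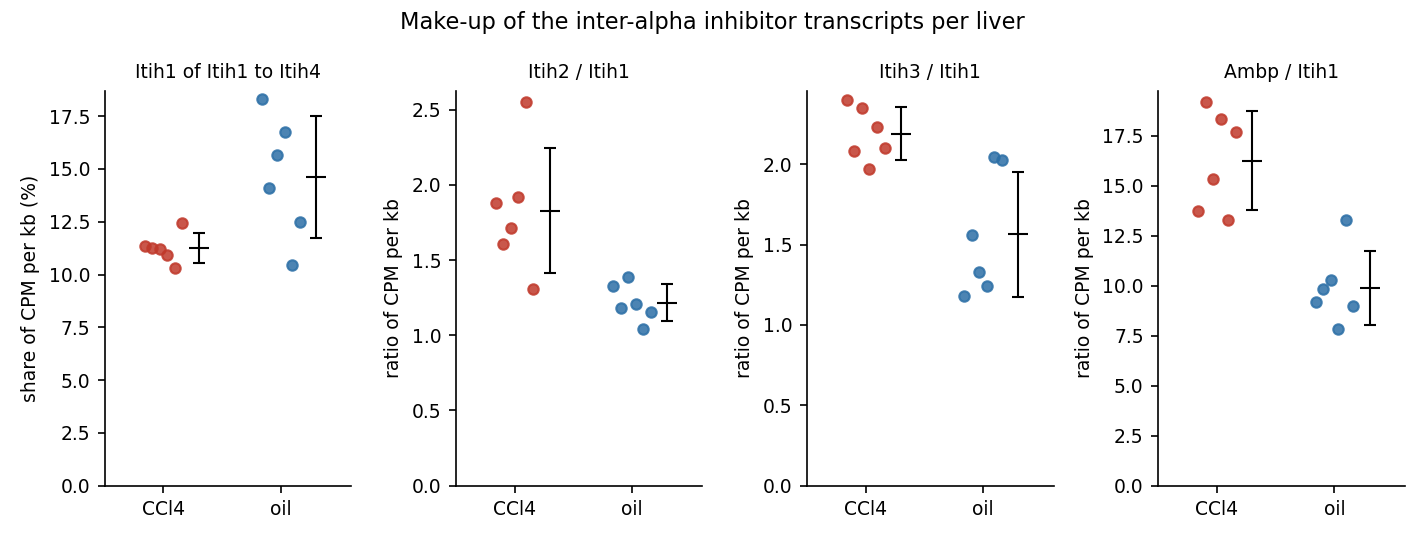
Share of Itih1 among Itih1 to Itih4, and ratios of Itih2, Itih3 and Ambp to Itih1, all from CPM per kb, in 6 CCl4 livers (red, left) and 6 oil livers (blue, right) with mean and SD. The Ambp to Itih1 ratio separates the groups by a narrow gap, and the other measures overlap.

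Relatives of the inter-alpha inhibitors outside the members rose. All 3 tested genes of that list were called, with a median of 0.72. Itih5, a heavy chain relative that lies 22175 bases from Itih2, averaged 29.9 ± 8.46 CPM in CCl4 livers and 18.2 ± 5.11 CPM in oil livers (log2 fold change 0.72 ± 0.21, edgeR adjusted p = 0.0149). Spint1 and Spint2 encode membrane protease inhibitors with the Kunitz fold that bikunin also has. Spint2 averaged 124 CPM in CCl4 livers and 81.5 CPM in oil livers (0.61 ± 0.14, adjusted p = 0.00437), and Spint1 0.912 CPM in CCl4 livers and 0.323 CPM in oil livers (1.48 ± 0.22, adjusted p = 0.000143). Of 5 tested bile duct markers 2 rose, with sums of 19.0 to 26.5 CPM in CCl4 livers and 9.93 to 25.5 CPM in oil livers, and their part in the level of Spint1 was not tested.

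Genes listed for matrix and other proteins that bind hyaluronan had mean levels from 0 to 163 CPM in oil livers. Of the 12 listed, 6 were tested, and of these 2 rose, 0 fell and 4 were not called, with a median of 0.36. Vcan, which encodes the large proteoglycan versican, ran from 0.893 to 2.18 CPM in CCl4 livers and from 0.0998 to 0.530 CPM in oil livers (log2 fold change 2.71 ± 0.35, edgeR adjusted p = 3.7e-05). Hapln1, a link protein that holds proteoglycans on hyaluronan, averaged 4.28 ± 2.53 CPM in CCl4 livers and 1.19 ± 0.689 CPM in oil livers (1.84 ± 0.45, adjusted p = 0.00516). Its groups were apart only by a narrow gap, with the lowest CCl4 liver at 2.07 CPM and the highest oil liver at 2.06 CPM. Tnfaip6, whose product TSG-6 moves heavy chains onto hyaluronan, averaged 0.737 ± 0.331 CPM in CCl4 livers and 0.483 ± 0.150 CPM in oil livers and was not called (adjusted p = 0.157).

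Enzymes that build chondroitin sulfate, the sugar that joins bikunin to the heavy chains, included 4 risen and 1 fallen gene of 13 tested, with a median of 0.37. Chst12 averaged 2.82 CPM in CCl4 livers and 1.24 CPM in oil livers (log2 fold change 1.18 ± 0.19, edgeR adjusted p = 0.000226). Chpf averaged 5.66 CPM in CCl4 livers and 2.76 CPM in oil livers (1.03 ± 0.19, adjusted p = 0.000666), and Chst11 1.77 CPM in CCl4 livers and 0.799 CPM in oil livers (1.15 ± 0.33, adjusted p = 0.0131). Chst12 and Chst11 encode sulfotransferases, and Chpf helps to extend the chain. Xylt2, a xylosyltransferase that starts the chain, averaged 13.4 CPM in CCl4 livers and 17.2 CPM in oil livers (-0.36 ± 0.12, adjusted p = 0.0346). It was not called under upper-quartile scaling, without the filter, with the length slope, or without CCl4 mouse 2, 4 or 6 or oil mouse 2, 4 or 6, each left out in turn (adjusted p from 0.0519 to 0.147).

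**Figure D5:**
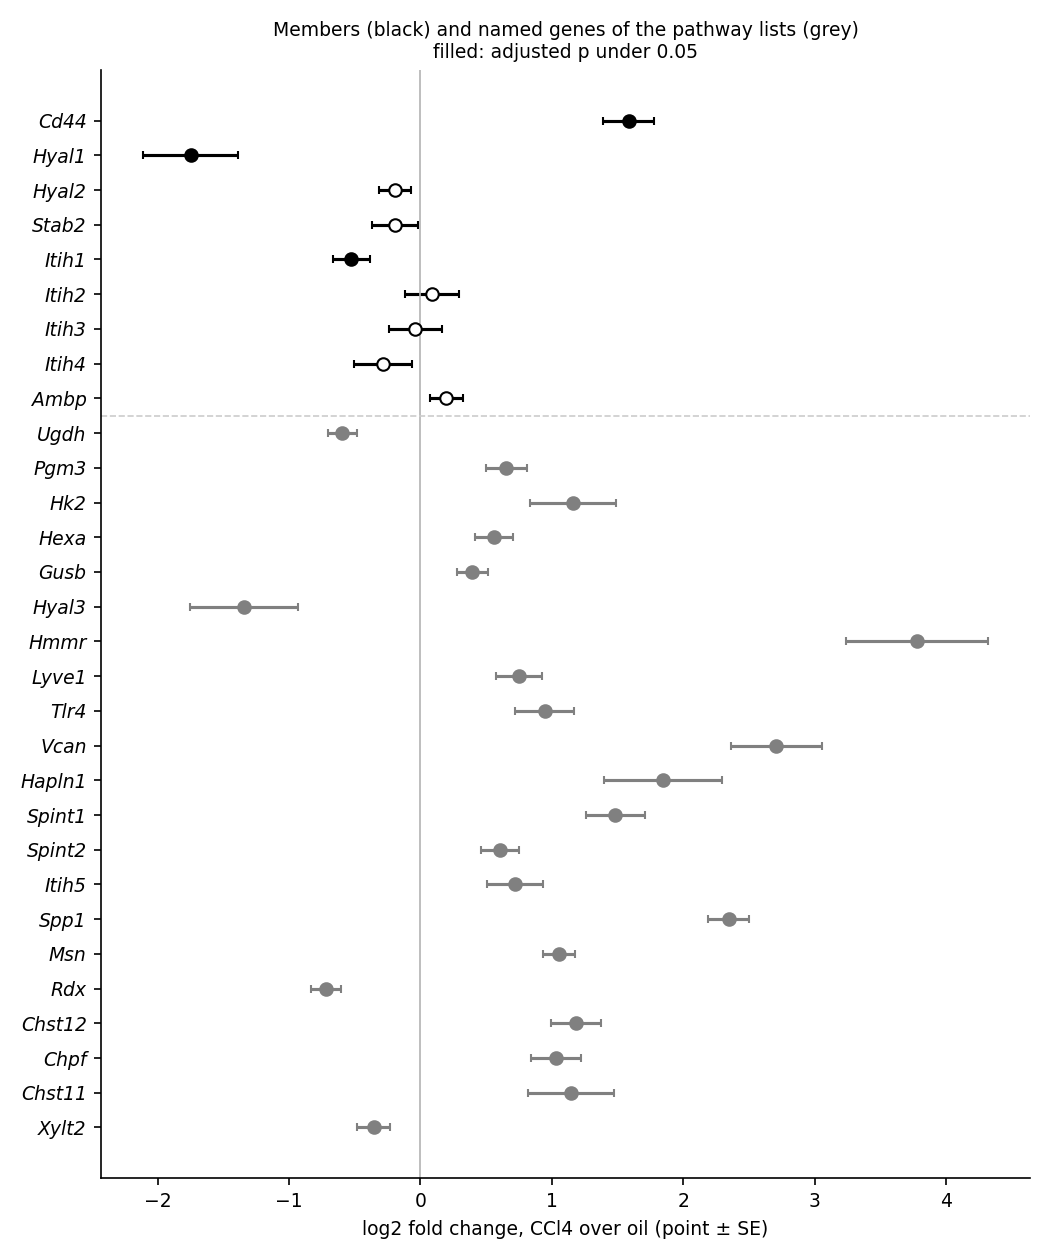
Log2 fold change of CCl4 over oil with its SE for the 9 tested members (black, top) and the other genes named here from the pathway lists (grey); filled points were called at an adjusted p under 0.05. Among members 3 points are filled, Cd44 to the right of 0 and Hyal1 and Itih1 to the left.

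Acute phase genes, which hepatocytes make in inflammation and among which Itih3 and Itih4 are often placed, were mostly not called. Of 15 tested, 2 rose, 1 fell and 12 were not called, with a median of 0.07. Lcn2 averaged 310 ± 93.7 CPM in CCl4 livers and 54.6 ± 57.1 CPM in oil livers (log2 fold change 2.51 ± 0.66, edgeR adjusted p = 0.00839). Crp, a weak acute phase gene in mouse, averaged 331 ± 44.9 CPM in CCl4 livers and 566 ± 164 CPM in oil livers (-0.77 ± 0.17, adjusted p = 0.00291). Hpx averaged 15466 ± 8640 CPM in CCl4 livers and 8024 ± 3138 CPM in oil livers (0.95 ± 0.32, adjusted p = 0.0322). It was not called with the length slope, without CCl4 mouse 6, or without oil mouse 1, 3, 4 or 6 (adjusted p from 0.0547 to 0.115).

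Genes whose deviations from their group means were most like those of a member were listed over the 12 livers, as a description. For Itih4 these were Lbp, which encodes the acute phase lipopolysaccharide-binding protein (Pearson's r 0.969, Spearman's rho 0.930), and Litaf (0.962 and 0.881). For Stab2 they were Pde2a (0.983 and 0.958) and Tie1, an endothelial receptor (0.976 and 0.965). For Cd44 they were Anxa2 (0.954 and 0.944) and Plcb4 (0.943 and 0.692), and for Itih1 Psmd2 (0.923 and 0.902) and Plg, plasminogen (0.917 and 0.916).

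Hyal1 resembled a great many genes. Among its nearest was Scaf1 (r 0.986, rho 0.986), and 897 genes reached an r of 0.9, against 223 for Itih2, 188 for Stab2 and 11 or fewer for each other tested member. For Itih2 the nearest were Smap2 (0.981 and 0.972) and Cln3 (0.974 and 0.902), and for Itih3 Slc37a1 (0.948 and 0.895) and Slc41a2 (0.924 and 0.930). Hyal2 was closest to Rab1b (0.920 and 0.944) and Gjb1 (0.916 and 0.923), and Ambp to Dusp23 (0.936 and 0.881) and Dap (0.934 and 0.895). All these values share the libraries and their length slope.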

How the data were processed

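For each of 12 livers the authors deposited whole-number, unscaled read counts by gene, and sample files and series table hold equal values. Per the labels' protocols the libraries came from a stranded total RNA kit, and per the submitters' processing notes the build was GRCm38. No source used here names the aligner, the counter or its use of strand. Of 36528 gene IDs, RefSeq named 31049 and GENCODE M21 a further 78, and 10900 had no count.

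The fit used edgeR 4.0.16 in R 4.3.3, with filterByExpr and TMM (robust quasi-likelihood, Benjamini-Hochberg over 16032 genes, threshold 0.05). A prior count of 2 entered log2 CPM. The SE was the log2 fold change divided by the square root of F. Intervals used the t distribution with degrees of freedom from the livers alone, without those that the quasi-likelihood test adds from other genes. The intervals therefore need not match the p-values exactly. Correlations within groups used exact two-sided permutation in scipy 1.17.1. No replicate pair was alike within counting noise (lowest chi-square per gene 53.4), and within groups r of log2 CPM across genes ran from 0.933 to 0.989. The test compares the groups against the spread between these mice. The labels do not say how cages or preparations were shared, so the p-values do not account for such sharing. Depth limits genes far below 1 CPM.

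The members and lists were chosen with earlier results of these data known. Named were the members, from each pathway list up to 3 called genes of smallest p and 1 that went against the majority, and for each tested member the 2 genes most like it. Some of these are not reported here. Has1, Has3, Stab1, Tnfaip6, Naa80, Tusc2, Ifrd2 and Slc1a2 were named after their values were seen, as were the motifs TATAAA and GGGCGG, the summed count of Hyal1, Hyal3 and Naa80 and the length of Hyal1 without shared bases. Further marker lists gave 3 risen and 1 fallen of 8 for endothelium in general, 0 called of 6 for mesothelium and 1 risen of 2 for muscle and fat, whose signal lay in CCl4 mice 1 and 3. Alternatives were DESeq2 1.42.0 size factors and test, limma 3.58.1 voom with quality weights, upper-quartile scaling, scaling without the 20 largest genes, other filters, a covariate for the length slope, and leaving out libraries. The test was tried on simulated counts. Protein sequences were not used here. Figures were drawn with matplotlib 3.10.9.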

Additional observations from a re-analysis of the deposited data

Results flagged for a closer look

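Among 37 groups of 6 values examined (levels of the members, and shares and ratios of members), 3 had a value far from its nearest neighbour. Far was judged against the range of the group (Dixon's 95% critical value), and chance sets apart about 1 group in 20. Has2 stood at 0.128 CPM in CCl4 mouse 6, which rests on 7 counts. The share of Itih3 among Itih1 to Itih4 was 25.3% in oil mouse 6, inside the range of the CCl4 livers of 21.6 to 27.2%. Ambp over the sum of Itih1 and Itih2 was 6.50 in oil mouse 5, the oil library richest in short transcripts.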

How the results depend on the processing

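Cd44, Hyal1 and Itih1 were called in the same direction under every scaling, filter, test, covariate and left-out library that was run. Cd44 ranged from 1.34 to 1.70 on the log2 scale, Hyal1 from -2.0 to -1.10 (-1.10 with Naa80 and Hyal3 summed in) and Itih1 from -0.62 to -0.41. Hyal2 was called only with the length slope as a covariate (-0.33), and Itih4 only without oil mouse 1, and with 1 liver left out at a time Itih4 ran from -0.46 to -0.18. These made the number of fallen members 3 in place of 2. Stab2, Itih2 and Itih3 were called under no setting and changed sign in some, with Stab2 from -0.32 to 0.01, Itih2 from -0.10 to 0.34 and Itih3 from -0.18 to 0.11. With the longest transcript in place of all exons, Itih3 made up 27.4% of Itih1 to Itih4 in CCl4 livers and 24.5% in oil livers, and Itih3 over Itih1 was 2.49 in CCl4 livers. With shared exon bases left out of its length only, Hyal1 stood at 3.91 CPM per kb in CCl4 livers and 13.2 CPM per kb in oil livers. The causes of the shifts in the fold changes were not tested. No paired analysis was possible because the labels give no pairing between mice of the groups. Depth limits Has2 and Has3, which did not pass the filter.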

Other observations

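The nearest protein-coding gene that does not overlap Cd44 is Slc1a2, a glutamate transporter that hepatocytes around the central vein express. It lies 20357 bases away and moved in the other direction. Slc1a2 averaged 0.342 ± 0.0913 CPM in CCl4 livers and 130 ± 23 CPM in oil livers (log2 fold change -8.57 ± 0.23, edgeR adjusted p = 2.1e-11). Within the oil group Itih3 and Itih4 varied together, with a Pearson's r of 0.933 and a Spearman's rho of 0.943 (exact permutation p = 0.00694 and 0.0167, n = 6, adjusted p = 0.0893 for r over 90 relations, r 0.907 without the 2 farthest livers). Within the CCl4 group Cd44 was highest where Hyal1 was lowest (r -0.831, rho -0.829, exact permutation p = 0.00556 and 0.0583, n = 6, adjusted p = 0.0893 for r, r -0.878 without the 2 farthest livers). Neither relation passed the adjustment. For Cd44 and Hyal1, r was -0.274 in the oil group. In the CCl4 group both also followed the length slope, with r of 0.952 for Hyal1 and -0.766 for Cd44. The part of the slope in their relation was not tested.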
